A study of Saccharomyces cerevisiae with 18 samples.

Results

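The high osmolarity glycerol (HOG) pathway of budding yeast senses a rise in external solute through a membrane receptor system and passes the signal down a cascade of kinases to the stress-activated MAP kinase Hog1. The genes described here are the sensors, phosphorelay proteins and kinases of that cascade, chosen by name from the known pathway. They number 10 of the 7126 gene identifiers in the count tables, and all 10 were found: SLN1, YPD1, SSK1, SSK2 and SSK22 of the Sln1 branch, SHO1, STE11 and STE50 of the Sho1 branch, and PBS2 and HOG1, which the branches share. In the Sln1 branch a histidine kinase keeps the relay protein Ypd1 and the response regulator Ssk1 phosphorylated in normal medium, and osmotic stress stops this flow, so that unphosphorylated Ssk1 activates the MAPKKKs Ssk2 and Ssk22. In the Sho1 branch a membrane scaffold gathers the MAPKKK Ste11 and its adaptor Ste50. Both branches meet at the MAPKK Pbs2, which phosphorylates Hog1, and Hog1 then acts on ion transport, glycerol production, the cell cycle and transcription.

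Polyadenylated RNA of Saccharomyces cerevisiae was sequenced in 18 libraries from 2 experiments, with 6 groups of 3 libraries, labelled as biological triplicates. In experiment 1 the groups were wild type (WT) cells in rich medium (YPD), here called basal, and WT cells taken 15 min after 0.4 M NaCl was added. Experiment 2 had basal and salt groups of WT and of a strain in which HOG1 was replaced by a kanamycin resistance cassette (HOG1-KO), again with 0.4 M NaCl for 15 min. All strains were described as BY4741 in background, a MATa haploid laboratory strain, and nothing in the labels says whether the HOG1-KO cultures came from more than a single clone. Experiment 1 used a TruSeq stranded mRNA kit and experiment 2 a CORALL kit, so levels were set side by side only within an experiment. The p-values below rest on the spread between libraries of the same group, estimated together over all groups of a fit. In experiment 2 a test of WT cells thus also draws on the HOG1-KO libraries. Basal and salt libraries were treated as unpaired except where replicate number was blocked.

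Total counts ran from 11135883 to 16527859 per library. Genes specific to MATa cells summed to 1020 to 1840 TMM-scaled CPM (counts relative to the scaled library total) per library in experiment 1 and to 1800 to 5600 in experiment 2, with all 6 detected. Within experiment 2 the sum was 3960 to 5600 in WT basal and 1800 to 2870 in WT salt libraries, and 4710 to 5310 and 4810 to 5480 in those of HOG1-KO. The 4 MATalpha genes summed to 52.2 to 63.0 CPM in experiment 1, to 54.3 to 110.0 CPM in WT cells of experiment 2 and to 115 to 144 CPM in HOG1-KO cells, most of it from SAG1. The MATalpha receptor gene STE3 was higher in HOG1-KO than in WT basal cells, at 12.5 ± 3.35 against 4.96 ± 0.50 CPM (SD, n = 3, edgeR adjusted p = 0.0105), and the part of these markers in the strain differences below was not tested. BY4741 lacks LEU2, URA3 and MET17, which had at most 2 counts in any library of experiment 2 but at least 168 counts in every library of experiment 1. For experiment 1 these levels go against the BY4741 description, and its libraries are called WT here as labelled. Of the WT libraries of experiment 2, basal replicate 1 and salt replicate 2 lay away from their groups, and their deviations from the group means correlated at r = 0.877 across 3535 genes. In these libraries SLN1 was lower than in the rest of the group (log2 differences of -0.60 and -0.58) and YPD1 was higher (0.60 and 0.62). HOG1 was lower there than the mean of the other libraries (-0.15 and -0.40). In basal cells, though, it lay between them, at 222 CPM beside 279 and 216 CPM. Against the same means SSK22 had 0.40 in the basal and -0.11 in the salt library, and STE11 had 0.13 and 0.43. Calls of the 10 genes in experiment 2 are therefore given also without both libraries where they changed.

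Salt moved transcripts of the cascade in both directions. In WT cells of experiment 1, 5 of the 10 genes rose in salt and 4 fell, beside 35.4% of all 5878 genes tested that rose and 33.8% that fell. In WT cells of experiment 2, 3 rose and 3 fell, beside 30.1% and 27.2% of 6107 genes. In HOG1-KO cells, 3 of the 9 genes tested rose and 4 fell, beside 28.8% and 25.6%. Over all genes this was 1756 higher and 1562 lower in HOG1-KO cells, and 1980 and 1053 with scaling by total counts alone, which called 3 of the 9 as higher and 1 as lower. Counts out of 9 or 10 genes are too small to set apart from the shares of all genes, and this was not tested. The median log2 change of the 10 genes was 0.13 in experiment 1 and 0.06 in WT cells of experiment 2, beside 0.02 and 0.04 for all genes. In HOG1-KO cells the median of the 9 was -0.17, beside 0.02. A gene was called where the adjusted p of edgeR's quasi-likelihood test, corrected by Benjamini-Hochberg over all genes tested, was under 0.05, and every change below is salt against basal on the log2 scale with its SE. SSK1, STE11 and STE50 rose, and SLN1 and SHO1 fell, in all 3 comparisons. In bulk cultures, fewer cells with a transcript and less of it per cell cannot be told apart.

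**Figure D1:**
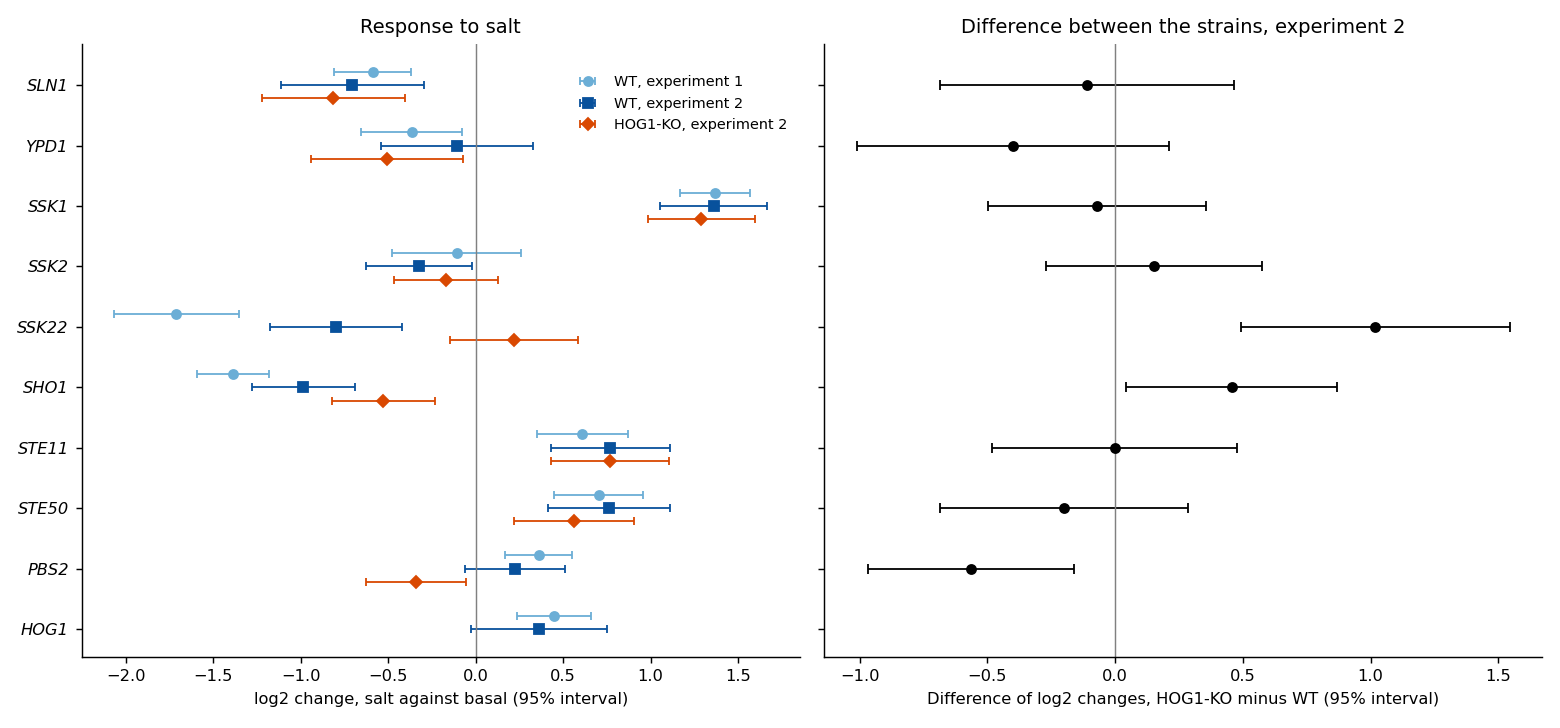
Left, log2 change in salt of each gene with its 95% interval in WT cells of experiment 1, WT cells of experiment 2 and HOG1-KO cells. Right, difference of the responses, HOG1-KO minus WT, with its 95% interval. SSK22 fell in both WT sets and not in HOG1-KO cells, and its difference of 1.02 was the only called difference among the 9 genes tested.

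HOG1 itself checked the strain labels. It had 3195, 2559 and 2997 counts in the WT basal libraries of experiment 2 and 4227, 4808 and 3318 in the WT salt libraries. In HOG1-KO cells it had 0, 1 and 0 counts in basal libraries and 0 in each of the 3 salt libraries, so the deletion was seen in every library labelled HOG1-KO. HOG1 was left out of every test that involves these libraries.

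Of the Sln1 branch, the sensor gene SLN1 (YIL147C, chromosome IX) fell in salt everywhere. It had 103.5, 106 and 89.1 CPM in the basal libraries of experiment 1 and 60.8, 69.5 and 68.3 CPM in salt, a change of -0.59 ± 0.10 (edgeR adjusted p = 2.06e-04, n = 3). In WT cells of experiment 2 it went from 118, 169 and 188 CPM to 102, 73.2 and 116 CPM, a change of -0.70 ± 0.19 (adjusted p = 0.00564). Both deviating libraries were the lowest of their groups here, and without them the change was -0.71 (adjusted p = 1.28e-04). In HOG1-KO cells SLN1 went from 165, 162 and 178 CPM to 84.3, 96.0 and 107 CPM (-0.81 ± 0.19, adjusted p = 0.00229). In each of the 3 comparisons no salt library reached the lowest basal library. The response did not differ detectably between the strains, with a difference of -0.11 and a 95% interval of -0.68 to 0.47.

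YPD1 (YDL235C, chromosome IV), which encodes the phosphotransfer protein between Sln1 and Ssk1, changed less. Its basal libraries of experiment 1 had 48.0, 42.1 and 34.0 CPM and its salt libraries 32.8, 33.8 and 29.9 CPM, a change of -0.37 ± 0.13 that passed the test (edgeR adjusted p = 0.0273). That call ended without basal replicate 1 (adjusted p = 0.129), basal replicate 2 (0.0766) or salt replicate 3 (0.0871), and with scaling by total counts alone (0.0813). In experiment 2 WT cells the change did not pass the test (-0.11, 95% interval -0.54 to 0.33, adjusted p = 0.676), with 57.6, 36.4 and 39.5 CPM basal and 35.6, 53.9 and 34.5 CPM in salt. The highest library of each of those groups was the deviating library. In HOG1-KO cells YPD1 went from 51.7, 50.6 and 39.8 CPM to 36.0, 32.2 and 31.7 CPM (-0.51 ± 0.20, adjusted p = 0.0461), with no overlap between the groups. With replicate number blocked this change was -0.50 with an adjusted p of 0.0913. The call also ended without HOG1-KO basal replicate 1 or 2 or salt replicate 1, 2 or 3 (adjusted p from 0.0585 to 0.135), with the filter of at least 10 CPM in 3 libraries (0.0597), and with scaling by total counts alone (-0.33, adjusted p = 0.334).

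SSK1 (YLR006C, chromosome XII), which encodes the response regulator that activates Ssk2 and Ssk22, had the largest increase of the 10 genes in each comparison. It rose from 42.1, 46.3 and 41.7 CPM to 108, 111 and 118 CPM in experiment 1 (1.37 ± 0.09, 2.59-fold, edgeR adjusted p = 4.5e-08). In the WT libraries of experiment 2 it rose from 43.4, 36.3 and 35.9 CPM to 89.3, 110.0 and 97.7 CPM (1.36 ± 0.14, adjusted p = 8.39e-07). In the HOG1-KO strain it rose from 41.6, 44.3 and 36.5 CPM to 90.3, 111 and 97.6 CPM (1.29 ± 0.14, adjusted p = 2.66e-06). The libraries of the strains lay in the same range in basal cells and in salt. The difference of the responses, HOG1-KO minus WT, was -0.07 with a 95% interval of -0.50 to 0.36, or a ratio of the fold changes between 0.708 and 1.28. All 3 calls held under every alternative run.

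The paralogous MAPKKK genes SSK2 and SSK22 behaved differently. SSK22 (YCR073C, chromosome III) had 26.7, 24.1 and 22.6 CPM in the basal libraries of experiment 1 and 5.82, 8.39 and 8.13 CPM in salt, a change of -1.71 ± 0.16 (edgeR adjusted p = 1.3e-06), or 3.27-fold lower. In experiment 2 WT cells it went from 27.2, 18.8 and 22.5 CPM to 10.9, 12.5 and 16.2 CPM (-0.80 ± 0.18, adjusted p = 0.00134). The highest of these basal libraries was the deviating library. The change lay between -0.96 and -0.66 when any of the 12 libraries was left out (adjusted p from 6.23e-04 to 0.00674). In HOG1-KO cells SSK22 had 26.4, 28.9 and 25.9 CPM basal and 30.5, 32.7 and 31.4 CPM in salt, and the change of 0.22 ± 0.17 did not pass the test (adjusted p = 0.289, 95% interval -0.14 to 0.59). All WT salt libraries lay under all WT basal libraries within each experiment, and all HOG1-KO salt libraries lay above all HOG1-KO basal libraries. The counts behind these values were low in the salt libraries of experiment 1, at 69, 98 and 137.

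The difference of the SSK22 responses, HOG1-KO minus WT, was 1.02 ± 0.25 (95% interval 0.49 to 1.55, edgeR adjusted p = 0.0139). This was the only 1 of 9 genes whose response was called as higher in HOG1-KO cells, beside 4.57% of all genes, and 0 were called as lower, beside 5.24%. With replicate number blocked the SSK22 difference was 1.01 and its adjusted p 0.0654, and with scaling by total counts alone 1.06 and 0.0584. It stayed called when any of the 12 libraries was left out, between 0.88 and 1.18 with adjusted p from 0.00592 to 0.0435. Without both deviating libraries it was 0.85 (adjusted p = 0.00979). Between the experiments the WT responses of SSK22 differed by 0.87 (experiment 2 minus experiment 1, 95% interval 0.25 to 1.49), which did not pass the test (adjusted p = 0.142). DESeq2 gave 0.88 for that difference with an adjusted p of 0.0371, and without both deviating libraries edgeR gave 1.08 and 0.0132. None of the 10 genes differed between the experiments in the WT response by edgeR, beside 2.58% of 6092 genes, and 1 had an unadjusted p under 0.05.

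SSK2 (YNR031C, chromosome XIV) was not called in any of the 3 comparisons. Its basal libraries of experiment 1 had 45.0, 43.1 and 31.3 CPM and its salt libraries 28.3, 42.5 and 39.8 CPM, which overlapped (-0.11, 95% interval -0.48 to 0.26, edgeR adjusted p = 0.585). In the WT libraries of experiment 2 it had 52.1, 49.8 and 57.8 CPM basal and 36.4, 44.8 and 46.5 CPM in salt, without overlap (-0.32 ± 0.14, adjusted p = 0.062). That change passed the test with DESeq2 (adjusted p = 0.0257), with RLE scaling (0.0367), without a filter on low counts (0.0432), without both deviating libraries (0.0324), and without WT salt replicate 2 (0.0226) or HOG1-KO salt replicate 1 (0.0443). In HOG1-KO cells the change was -0.17 (95% interval -0.47 to 0.13), from 63.0, 56.7 and 63.1 CPM to 46.9, 58.1 and 57.3 CPM. The strain difference of the response was 0.15 with a 95% interval of -0.27 to 0.58.

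**Figure D2:**
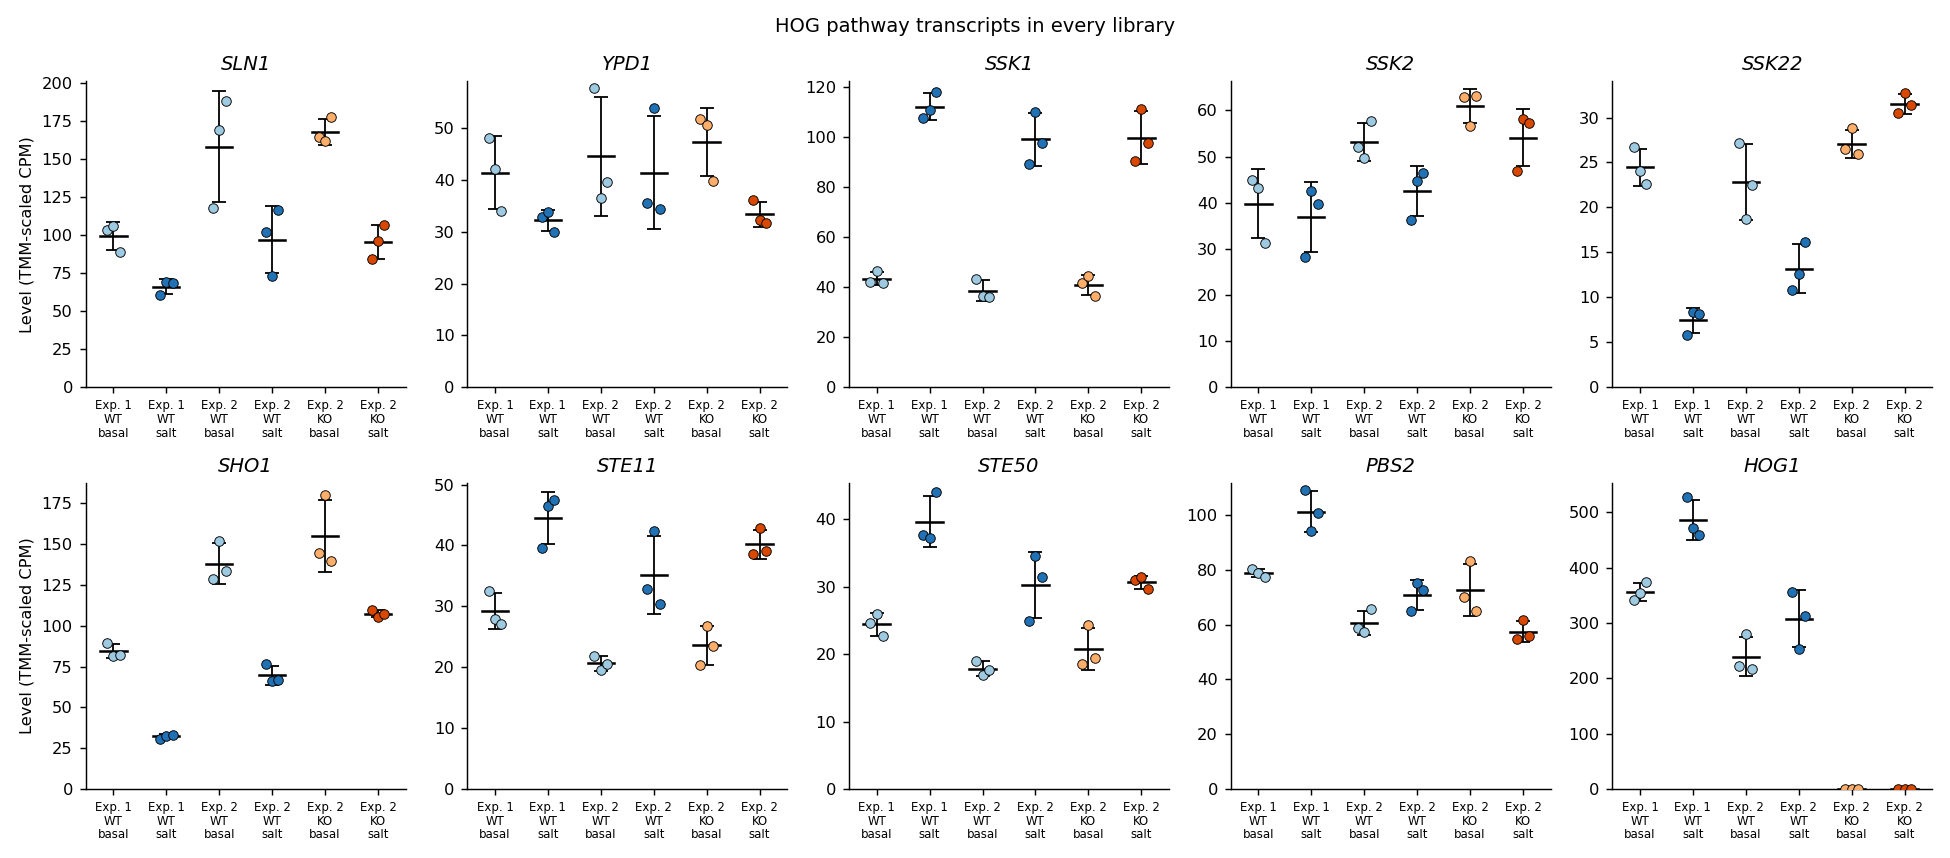
Level of each gene in every library, in TMM-scaled CPM, by group. Points are libraries, bars the mean and SD of 3 libraries, and each axis starts at 0. SSK22 sat at 10.9 to 16.2 CPM in WT salt libraries of experiment 2 and at 30.5 to 32.7 CPM in HOG1-KO salt libraries, while SSK1 had nearly the same levels in these groups.

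Of the Sho1 branch, SHO1 (YER118C, chromosome V), which encodes the membrane scaffold, fell in salt while the genes of the kinase and its adaptor rose. SHO1 went from 89.4, 81.6 and 82.3 CPM to 30.9, 32.8 and 33.1 CPM in experiment 1 (-1.39 ± 0.09, edgeR adjusted p = 4.91e-08), or 2.62-fold lower. In experiment 2 WT cells it went from 128, 152 and 133.5 CPM to 76.4, 66.1 and 66.7 CPM (-0.98 ± 0.14, adjusted p = 1.88e-05). In the HOG1-KO strain it went from 144, 180.0 and 139.5 CPM to 109, 105 and 107 CPM, a smaller estimate of -0.53 ± 0.14 (adjusted p = 0.0044, and 0.0543 with scaling by total counts alone). Every salt library lay below every basal library of its strain and experiment. The difference of the responses was 0.46 (95% interval 0.04 to 0.87) and did not pass the test over all genes (adjusted p = 0.181).

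STE11 (YLR362W, chromosome XII), which encodes the MAPKKK of this branch and of the mating and filamentous growth pathways, rose by 0.61 ± 0.12 in experiment 1 (edgeR adjusted p = 6.14e-04). Its libraries went from 32.6, 27.9 and 27.1 CPM to 39.7, 46.5 and 47.5 CPM. In experiment 2 it rose by 0.77 ± 0.16 in WT cells (adjusted p = 7.69e-04), from 21.9, 19.5 and 20.5 CPM to 32.8, 42.4 and 30.3 CPM. The highest of these salt libraries was the deviating library, without which, and without the deviating basal library, the change was 0.66 (adjusted p = 9.09e-04). In HOG1-KO cells it rose by 0.77 ± 0.16 (adjusted p = 7.9e-04), from 20.4, 26.8 and 23.6 CPM to 38.6, 42.8 and 39.1 CPM. The responses of the strains had a difference of -0.00 with a 95% interval of -0.48 to 0.48.

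STE50 (YCL032W, chromosome III), whose product binds Ste11, rose by 0.70 ± 0.12 in experiment 1 (edgeR adjusted p = 1.73e-04), from 24.6, 26.0 and 22.6 CPM to 37.6, 37.2 and 44.0 CPM. In the WT libraries of experiment 2 it rose by 0.76 ± 0.16 (adjusted p = 9.24e-04), from 19.0, 16.9 and 17.7 CPM to 24.9, 34.5 and 31.4 CPM. In the HOG1-KO strain it rose by 0.56 ± 0.16 (adjusted p = 0.00787), from 18.6, 24.3 and 19.4 CPM to 31.0, 31.5 and 29.6 CPM. For STE11 and STE50 alike, the salt libraries of each strain and experiment lay above all its basal libraries. The strain difference of the STE50 response was -0.20 with a 95% interval of -0.68 to 0.29.

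The shared kinase gene PBS2 (YJL128C, chromosome X) rose in experiment 1 and fell in HOG1-KO cells. Its basal libraries of experiment 1 had 80.2, 79.0 and 77.5 CPM and its salt libraries 109, 94.1 and 101 CPM (0.36 ± 0.09, edgeR adjusted p = 0.00308). In experiment 2 WT cells it had 58.8, 57.5 and 65.6 CPM basal and 64.8, 75.1 and 72.7 CPM in salt, groups that overlapped, and the change of 0.23 did not pass the test (95% interval -0.06 to 0.51, adjusted p = 0.163). In HOG1-KO cells it went from 70.0, 83.3 and 64.9 CPM to 54.7, 61.9 and 55.8 CPM (-0.34 ± 0.13, adjusted p = 0.0431), without overlap. The HOG1-KO call ended with replicate number blocked (-0.33, adjusted p = 0.0683), and with scaling by total counts alone the value was -0.16 (0.484), and with the filter of at least 10 CPM in 3 libraries -0.30 (0.0622). It also ended without WT salt replicate 3, HOG1-KO basal replicate 1 or 2, or HOG1-KO salt replicate 1, 2 or 3 (adjusted p from 0.0521 to 0.18). The difference of the responses was -0.56 ± 0.19 (95% interval -0.97 to -0.16), which did not pass edgeR's test (adjusted p = 0.0812) and passed that of DESeq2 (-0.54, adjusted p = 0.0391).

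HOG1 (YLR113W, chromosome XII), the gene of the terminal MAP kinase, rose in experiment 1 from 342, 353 and 374 CPM to 527, 472 and 459 CPM (0.45 ± 0.10, edgeR adjusted p = 0.00128). In the WT libraries of experiment 2 it had 222, 279 and 216 CPM basal and 356, 253.5 and 313 CPM in salt, which overlapped, and the change of 0.36 did not pass the test (95% interval -0.02 to 0.75, adjusted p = 0.0995). The lowest of these salt libraries was the deviating library. Without both deviating libraries the increase was 0.43 and passed the test (adjusted p = 0.017), as it did without WT salt replicate 2 alone (0.0354) and with scaling by total counts alone (0.51, adjusted p = 0.0181).

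The strains were next compared at the same condition. In basal cells 0 of 9 genes were called by edgeR, beside 0.982% of all genes in either direction, 0 had an unadjusted p under 0.05, and DESeq2 also called 0. Over all genes 29 were called as higher and 31 as lower, and without both deviating libraries 352 and 701, with 0 of the 9 genes among them. The estimates, HOG1-KO minus WT, ran from 0.08 to 0.26, the highest being PBS2 (95% interval -0.03 to 0.55), and those of SLN1 and YPD1 changed sign when a library was left out. In salt 2 of 9 genes were higher in HOG1-KO cells, beside 12.8% of all genes, and 0 were lower, beside 12.4%. Over all genes 783 were higher and 759 lower, and 997 and 447 with scaling by total counts alone. They were SSK22, at 1.26 ± 0.18 (2.4-fold, edgeR adjusted p = 6.45e-05), and SHO1, at 0.62 ± 0.14 (1.54-fold, adjusted p = 0.00344), and for both no HOG1-KO salt library overlapped a WT salt library. SSK2 was 0.35 higher (adjusted p = 0.0858) and PBS2 was -0.30 (adjusted p = 0.115), and neither passed the test. Without both deviating libraries SSK2 and STE11 were called as well, at 0.39 (adjusted p = 0.0265) and 0.35 (adjusted p = 0.0353), and SSK2 was also called without WT salt replicate 2 alone (0.0432) and by DESeq2 (0.0465).

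Levels per kb of coding sequence, in TMM-scaled CPM per kb, put the 10 genes in an order. HOG1 was the highest in every WT group, between 183 ± 26.6 and 372 ± 27.4 (SD, n = 3), and SSK22 was the lowest of the 9 genes other than HOG1 in all 6 groups, between 1.86 ± 0.35 and 7.89 ± 0.28. In basal cells of experiment 1 HOG1 was followed by YPD1 (82.1), SHO1 (76.5), PBS2 (39.3), SLN1 (27.2), STE50 (23.4), SSK1 (20.3), STE11 (13.6) and SSK2 (8.40). The library ranges of YPD1 and SHO1 overlapped, as did those of SLN1 and STE50 and those of SSK2 and SSK22. Against 6013 coding genes of the same libraries, 90.9% lay below HOG1 and 15.6% below SSK22. After salt SSK1 was the third in that experiment, at 52.4, with a library range overlapping that of PBS2 at 50.4, and SHO1 had moved to 29.2.

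In WT basal cells of experiment 2 the order after HOG1 was SHO1 (125), YPD1 (88.4), SLN1 (43.2), PBS2 (30.2), SSK1 (18.0), STE50 (17.2), SSK2 (11.2) and STE11 (9.58) CPM per kb. The ranges of SLN1 and PBS2 overlapped, and so did those of SSK1 and STE50. In salt SSK1 stood at 46.3 in WT and 46.6 in HOG1-KO cells, above PBS2 at 35.3 and 28.6. SHO1 was the highest of the 9 remaining genes in HOG1-KO cells, at 140.0 ± 20.0 basal and 97.2 ± 1.89 in salt.

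**Figure D3:**
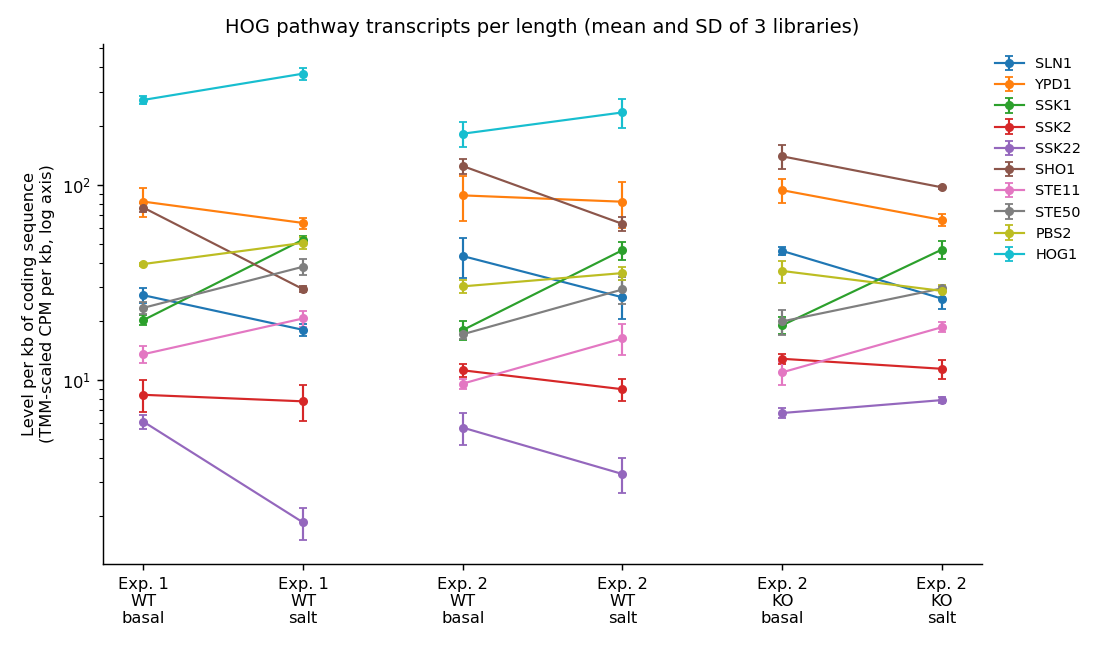
Level per kb of coding sequence on a log axis, in TMM-scaled CPM per kb, as mean and SD of 3 libraries in each of 6 groups. Lines join basal and salt groups of a strain and experiment. HOG1 lies highest in the WT groups, SSK22 lies lowest of the other 9 genes in all 6, and the line of SSK22 drops in WT and not in HOG1-KO cells.

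Ratios within a library do not depend on scaling between libraries. The per-kb ratio of SSK22 to SSK2 went from 0.741 ± 0.103 to 0.24 ± 0.0055 (SD, n = 3) in experiment 1 and from 0.509 ± 0.0948 to 0.366 ± 0.0412 in WT cells of experiment 2. In the HOG1-KO strain it went from 0.53 ± 0.0644 to 0.696 ± 0.0658. The libraries of basal and salt groups did not overlap in any of these comparisons, and the ratio moved down in WT and up in HOG1-KO cells. Of the summed per-kb level of the HOG pathway's 3 MAPKKK genes, STE11 took 48.4% ± 2.27 in basal cells and 68.4% ± 2.63 in salt in experiment 1. It took 36.2% and 57.0% in WT cells of experiment 2 and 35.7% and 49.2% in HOG1-KO cells. The SSK22 share went from 21.9% to 6.11%, from 21.4% to 11.6%, and from 22.2% to 20.8% in the same comparisons.

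The ratio of SSK1 to YPD1, the regulator over the protein that phosphorylates it, was 0.252 ± 0.0418 in basal cells and 0.825 ± 0.0928 in salt in experiment 1. It was 0.209 and 0.580 in WT cells of experiment 2, and 0.204 and 0.709 in HOG1-KO cells. The groups did not overlap in these comparisons. STE50 over STE11 lay between 1.58 and 1.85 in all 6 group means. Its basal and salt libraries overlapped in both WT sets, while in HOG1-KO cells the basal libraries (1.89, 1.88 and 1.71) lay above the salt libraries (1.66, 1.52 and 1.57). The group means of HOG1 over PBS2 lay between 6.10 and 7.37 in the 4 WT groups. These ratios are of transcripts per length and were not tested beyond the overlap of libraries.

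**Figure D4:**
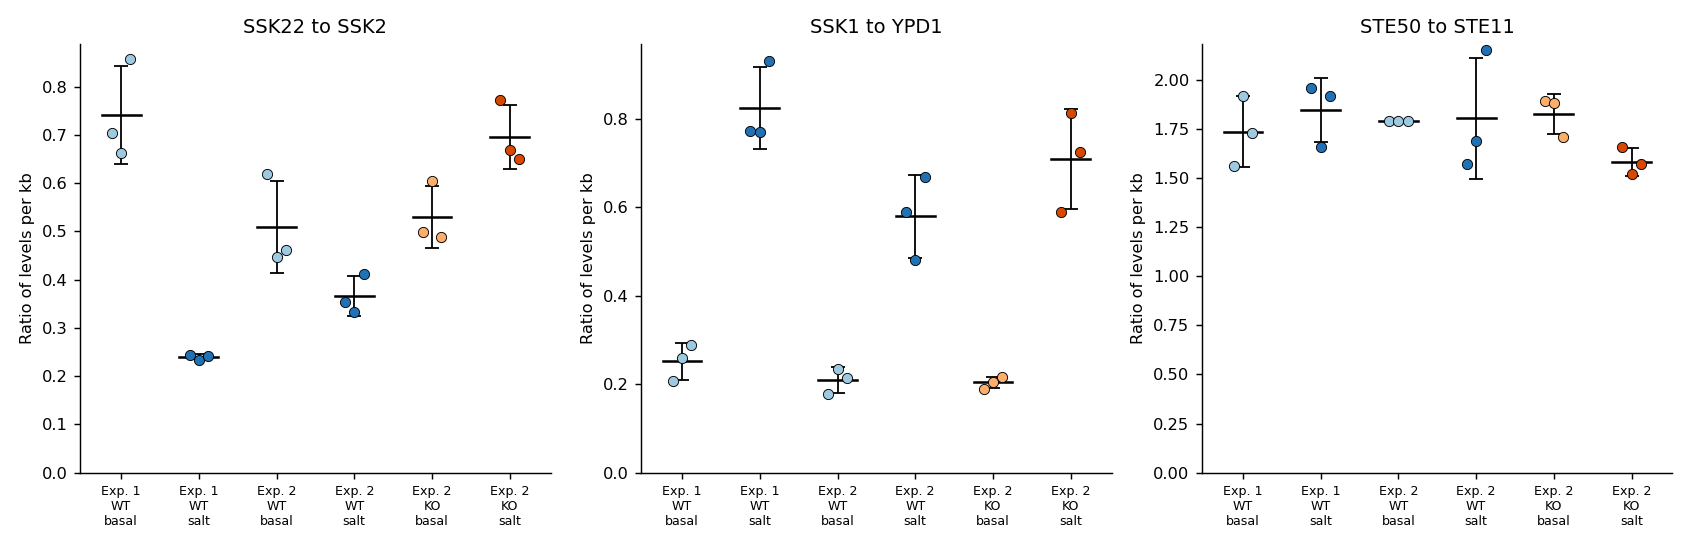
Ratio of levels per kb of coding sequence within each library, by group, for SSK22 over SSK2, SSK1 over YPD1 and STE50 over STE11. Points are libraries and bars the mean and SD of 3 libraries. SSK22 over SSK2 is lowest in the WT salt groups, SSK1 over YPD1 is higher in every salt group, and STE50 over STE11 lies between 1.52 and 2.15 in all libraries.

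The start regions of SSK1, SSK22 and PBS2 are shown because these genes carry the shared increase, the strain difference and the opposite estimates between strains. Each runs 5′ to 3′ on the gene's own strand over 300 bases, 250 before the start codon and 50 from it, read from the RefSeq genome of build R64, the build of the counts. All 3 genes lie on the minus strand, and the windows are chrXII:163844-164143 for SSK1, chrIII:246534-246833 for SSK22 and chrX:180054-180353 for PBS2. Capitals mark matches to any of 4 motifs searched on both strands: AGGGG, the stress response element; TGACGT, the core of the CRE bound by Sko1; TGAAAC, the pheromone response element; and GGGACAAA, a motif given for Hot1.
SSK1: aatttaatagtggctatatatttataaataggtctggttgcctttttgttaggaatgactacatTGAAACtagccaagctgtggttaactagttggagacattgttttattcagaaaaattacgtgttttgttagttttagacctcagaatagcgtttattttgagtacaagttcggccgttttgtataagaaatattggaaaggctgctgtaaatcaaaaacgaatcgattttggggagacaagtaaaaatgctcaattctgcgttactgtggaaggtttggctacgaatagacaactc
SSK22: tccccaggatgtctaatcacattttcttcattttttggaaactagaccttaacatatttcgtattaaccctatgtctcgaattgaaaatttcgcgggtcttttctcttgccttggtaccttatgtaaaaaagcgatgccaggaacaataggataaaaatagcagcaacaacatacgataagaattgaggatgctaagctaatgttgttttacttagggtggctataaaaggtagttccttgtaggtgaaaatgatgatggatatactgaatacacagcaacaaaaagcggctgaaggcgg
PBS2: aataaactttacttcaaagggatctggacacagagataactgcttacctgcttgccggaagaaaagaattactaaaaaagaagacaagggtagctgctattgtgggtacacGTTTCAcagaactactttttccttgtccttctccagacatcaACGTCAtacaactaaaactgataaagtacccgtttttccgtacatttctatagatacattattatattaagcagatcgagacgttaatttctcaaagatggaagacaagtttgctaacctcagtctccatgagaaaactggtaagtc
The SSK1 window held TGAAAC starting 186 bases before the start codon. The PBS2 window held TGACGT at 97 bases and TGAAAC at 139 bases before it, both on the opposite strand, and the SSK22 window held no match. Over all 10 genes AGGGG matched in 0 windows, beside 21.6% of the 6020 windows of coding genes, and GGGACAAA in 0, beside 0.797%. TGACGT matched in 2 of 10, PBS2 and YPD1, beside 7.52%, and TGAAAC in 3 of 10, SSK1, SSK2 and PBS2, beside 19.9%. None of these motifs overlaps another by its letters in the 3 windows. A match describes letters in this window only.

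The genes with the most similar profile were found as those with the smallest root mean square difference in centred log2 CPM over the 18 libraries, among 4723 genes. PBS2 was closest to RPN1 at 0.093, SSK2 to AVL9 at 0.096, STE50 to HRT1 at 0.101, STE11 to SSQ1 at 0.112 and SLN1 to ITR2 at 0.113. SSK1 was closest to HSV2 at 0.121, YPD1 to SSU72 at 0.122 and SHO1 to KIN4 at 0.156. SSK22 had the most distant neighbour, BUB1 at 0.219, where the median over all genes was 0.709. Noise is larger at low counts, such as those of SSK22 in WT salt libraries, and its part in this distance was not tested. HOG1, deleted in 1 strain, was not searched, and none of the other 9 had a member as its nearest gene.

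Other genes of the pathway were counted on 4 lists. The shares of all genes that rose and fell, to be read beside each count, were 35.4% and 33.8% in experiment 1, 30.1% and 27.2% in WT cells of experiment 2, and 28.8% and 25.6% in HOG1-KO cells. For the difference of the responses, 4.57% of all genes were called as higher in HOG1-KO cells and 5.24% as lower. Of 9 partners of the Sho1 branch, which include mucin sensors and activators of Ste11, 3 rose and 4 fell in experiment 1, 2 rose and 3 fell in WT cells of experiment 2, and 3 rose and 2 fell in HOG1-KO cells. The HOG1-KO counts became 1 and 1 with replicate number blocked and without HOG1-KO basal replicate 1 or salt replicate 3, and 2 and 1 without HOG1-KO salt replicate 2 or basal replicate 3. The mucin gene MSB2 fell by 0.65 in WT cells of experiment 2 and rose by 0.61 in HOG1-KO cells, a difference of 1.26 ± 0.29 (edgeR adjusted p = 0.00984). With replicate number blocked neither change of MSB2 passed the test (adjusted p = 0.0662 and 0.0743), the WT change ended without WT basal replicate 2 (0.0835) and in a fit of only the libraries compared (0.0767), and the HOG1-KO change without HOG1-KO basal replicate 1 or 2 or salt replicate 1 or 3 (0.0528 to 0.0627). The PAK kinase gene CLA4 rose by 0.47 in WT cells and had -0.14 in HOG1-KO cells, a difference of -0.62 (adjusted p = 0.0397). Thus 1 of the 9 responses was higher and 1 lower in HOG1-KO cells, beside 4.57% and 5.24% of all genes. The other mucin gene, HKR1, fell in both strains (-0.88 and -0.77), and the membrane anchor gene OPY2 rose in both (0.48 and 0.75). CDC42, which encodes a small GTPase, fell in both (-0.81 and -0.61). The WT call of OPY2 ended without WT basal replicate 1 (adjusted p = 0.0576), and the HOG1-KO call of CDC42 with the block (0.0821) and without HOG1-KO basal replicate 1 or 3 or salt replicate 2 or 3 (0.0696 to 0.0971).

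Of 7 negative regulators of the pathway, 3 rose and 1 fell in experiment 1, 4 rose and 1 fell in WT cells of experiment 2, and 1 rose and 1 fell in HOG1-KO cells. In HOG1-KO cells 2 fell with DESeq2, in a fit of only the libraries compared, without WT salt replicate 2 and without both deviating libraries. The number that rose in WT cells of experiment 2 was 3 with replicate number blocked, in a fit of only the libraries compared, and without WT basal replicate 2 or 3. It was 5 with total counts alone and without both deviating libraries. In experiment 1 it was 4 with the filter of at least 10 CPM in 3 libraries and without basal replicate 3 or salt replicate 1. The tyrosine phosphatase genes PTP2 and PTP3, whose products inactivate Hog1, rose in WT cells of experiment 2 by 1.35 and 1.27. In HOG1-KO cells PTP2 rose by 1.24, while PTP3 had -0.14 and did not pass the test. The difference for PTP3 was -1.41 ± 0.23 (edgeR adjusted p = 7.76e-04), the only called difference on this list. The phosphatase gene PTC2 fell in both strains (-1.08 and -1.20).

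Of 12 Hog1 targets and nuclear partners, 7 rose and 2 fell in experiment 1, 7 rose and 1 fell in WT cells of experiment 2, and 6 rose and 2 fell in HOG1-KO cells. Scaling by total counts alone gave 4 and 3 in experiment 1. The number that fell in WT cells of experiment 2 was 2 or 3 with DESeq2, with RLE scaling, without a filter, without both deviating libraries, and without WT basal replicate 1, WT salt replicate 1 or 2, or HOG1-KO basal replicate 2 or 3. Without both deviating libraries the WT increases of HOT1 (0.39, adjusted p = 0.0643) and MCM1 (0.47, adjusted p = 0.0537) were not called. Those that fell in HOG1-KO cells were the corepressor genes TUP1 and CYC8. Neither was called without HOG1-KO basal replicate 2 (adjusted p = 0.0728 and 0.133) or salt replicate 3 (0.0578 and 0.055), and 1 was called without HOG1-KO salt replicate 2, with replicate number blocked and with total counts alone. TUP1 fell in WT cells of experiment 2 as well, by -1.1 to -0.65 when any library was left out (edgeR adjusted p from 1.94e-04 to 0.0209). CYC8 fell in experiment 1 as well, by -0.40 to -0.30 when any library was left out (adjusted p from 0.0041 to 0.0229). The general stress activator gene MSN2 rose by 2.32 in WT cells and by 0.50 in HOG1-KO cells, a difference of -1.82 ± 0.20 (edgeR adjusted p = 1.91e-05). The HOG1-KO increase of MSN2 ended without HOG1-KO basal replicate 3 (adjusted p = 0.0504). The transcription factor gene SMP1 rose by 1.26 and by 2.27, a difference of 1.01 ± 0.27 (adjusted p = 0.0257). The kinase gene RCK1 rose in both strains (1.55 and 0.94).

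Of 10 genes of other MAP kinase modules, 5 rose and 0 fell in experiment 1, 5 rose and 2 fell in WT cells of experiment 2, and 8 rose and 1 fell in HOG1-KO cells. In experiment 1, 1 gene fell with DESeq2, with RLE scaling, without a filter, and without basal replicate 3 or salt replicate 3. In a fit of only the libraries compared 2 fell in HOG1-KO cells. The pair that fell in WT cells of experiment 2 was FUS3 and BCK1, a MAPKKK gene of the cell wall pathway. BCK1 was also the gene that fell in HOG1-KO cells. That change lay between -0.98 and -0.71 when any of the 12 libraries was left out (edgeR adjusted p from 2.91e-04 to 0.00662). The WT call of BCK1 ended with replicate number blocked (adjusted p = 0.0844), with total counts alone (0.313), with the filter of at least 10 CPM in 3 libraries (0.0536), in a fit of only the libraries compared (0.0989), and without WT salt replicate 1 or 3, WT basal replicate 3, HOG1-KO basal replicate 1, 2 or 3 or HOG1-KO salt replicate 3 (0.0549 to 0.263). FUS3, the MAP kinase gene of the mating pathway, fell by 0.55 in WT cells and rose by 0.80 in HOG1-KO cells, a difference of 1.35 ± 0.20 (edgeR adjusted p = 2.42e-04). In basal cells FUS3 was the only gene of this list called between the strains, at 0.69 higher in HOG1-KO (adjusted p = 0.0212), and that call ended with replicate number blocked (0.0522), in a fit of only the libraries compared (0.0616) and without WT basal replicate 2 or HOG1-KO basal replicate 1, 2 or 3 (0.0641 to 0.166). The WT decrease of FUS3 ended with scaling by total counts alone (adjusted p = 0.0736). SLT2, the MAP kinase gene of the cell wall pathway, rose by 1.65 in WT and by 0.62 in HOG1-KO cells, a difference of -1.03 ± 0.23 (adjusted p = 0.00839). The sporulation kinase gene SMK1 rose by 1.16 and by 2.76 (difference 1.60, adjusted p = 0.0284), and KDX1, a paralogue of SLT2, by 1.30 and 0.93. SMK1 was at a low level, which limits its estimates. In basal cells of experiment 2 it made up 0.259% of the summed per-kb level of 6 MAP kinase genes in WT and 0.146% in HOG1-KO. With replicate number blocked the differences of PTP3, MSN2 and FUS3 stayed called and those of MSB2, CLA4, SMP1, SLT2 and SMK1 did not, with adjusted p from 0.0513 to 0.11. The call of the CLA4 difference also ended in 10 of the 12 fits that left out a library, that of SMK1 in 8 and that of SMP1 in 6, while those of MSB2, PTP3, MSN2, FUS3 and SLT2 ended in 0. Scaling by total counts alone ended the calls of the SLT2 difference (adjusted p = 0.0679) and the CLA4 difference (0.221), the latter ended without a filter on low counts too (0.0527), and without both deviating libraries that of SMK1 ended (1.43, adjusted p = 0.0527).

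**Figure D5:**
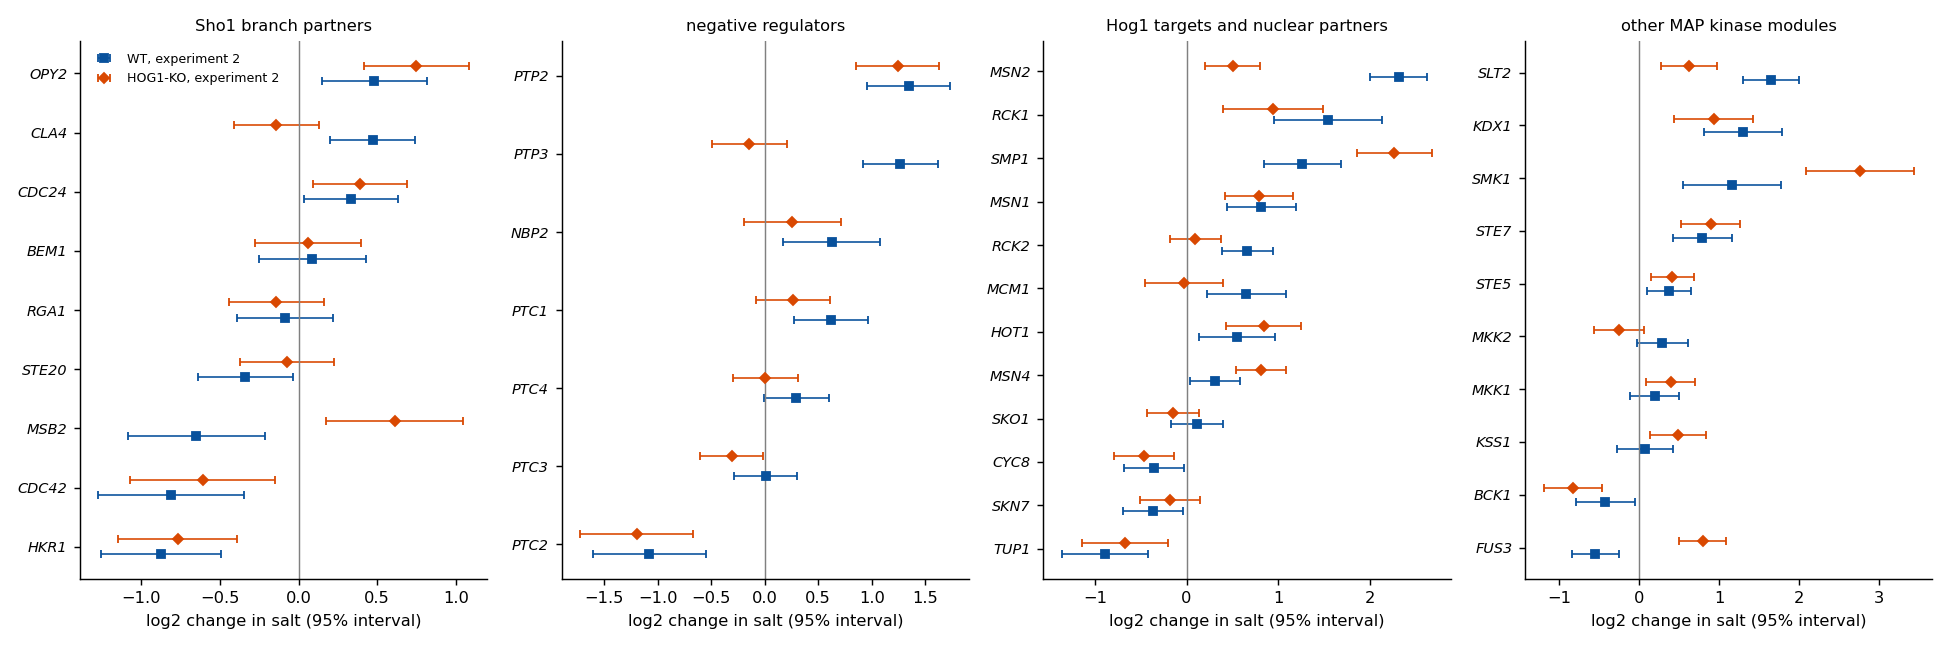
Log2 change in salt with its 95% interval for every gene of the 4 lists, in WT cells and HOG1-KO cells of experiment 2. MSB2 and FUS3 lie below 0 in WT and above 0 in HOG1-KO cells, and PTP3, MSN2 and SLT2 rise less or not at all in HOG1-KO cells.

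Set against the other genes of its tier, HOG1 made up 64.4% of the summed per-kb level of 6 MAP kinase genes in basal cells of experiment 1 and 66.9% in salt, and 47.7% and 46.7% in WT cells of experiment 2. FUS3 made up 27.3% basal and 14.1% in salt in those WT cells. In HOG1-KO cells FUS3 was the largest share, at 61.5% basal and 64.8% in salt. The loss of HOG1 from the sum by itself raises every other share there. PBS2 made up 31.8% ± 3.16 (SD, n = 3) of the 4 MAPKK genes in WT basal cells of experiment 2 and 29.5% ± 2.03 in salt, ranges that overlapped. In HOG1-KO cells its share went from 32.5% ± 2.46 to 22.8% ± 0.18, while that of STE7, the MAPKK gene of the mating pathway, went from 15.1% to 24.8%. The STE7 share also went up in WT cells of experiment 2, from 15.5% to 21.3%, without overlap of the libraries. In experiment 1 it was 16.9% basal and 17.4% in salt, with overlap.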

How the data were processed

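Gene counts of 18 poly(A) RNA libraries were analysed as deposited. Per the submitters' processing notes, the authors' tools include HISAT2 2.1.0 and featureCounts 1.5.1 with genome build R64, and whole-number counts per gene were deposited. Neither the strand setting of the counting nor its handling of reads with several positions is given in the sources used here, so antisense reads may not be told apart. No 50-base window of the 10 genes occurred elsewhere in the genome, and 0 of them overlapped another RefSeq gene; identifiers outside RefSeq (7126 in the tables, 6048 in the reference) were not checked for overlap.

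Counts were tested with edgeR 4.0.16 in R 4.3.3: TMM scaling, filterByExpr, robust quasi-likelihood fit, contrasts of group means, two-sided, with Benjamini-Hochberg adjustment over all genes and a threshold of 0.05. Each experiment had its own fit, of 6 libraries for experiment 1 and 12 for experiment 2, and the difference between experiments on the 12 WT libraries. Levels are CPM scaled by TMM within an experiment, divided by coding length where stated. SE is the absolute log2 change from edgeR's unshrunk coefficients over the root of F. The log2 changes given, and the centres of their intervals, are the values edgeR reports with its test. Alternatives were DESeq2 1.42.0, RLE scaling, total counts alone, no filter, at least 10 CPM in 3 libraries, only the libraries compared, the replicate number as a block, each library left out, and both deviating WT libraries left out. On data simulated with 200 changed genes, the edgeR fit called 76% of genes changed by 0.585 (log2) and 98% of those changed by 1 in experiment 1 (5846 genes), 29% and 91% for the HOG1-KO response (6041 genes), and 3% and 25% for the difference between strains (6041 genes). The changed genes had a mean of at least 10 CPM, and far fewer genes changed than were called in the salt responses. The adjustment depends on how many genes change, so these percentages need not hold for the data.

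The members and lists were chosen with earlier results of these data known. The named genes are all 10 members, up to 4 of the largest called changes per list and comparison, and the nearest genes by profile (0.5 CPM pseudocount, mean log2 CPM of at least 3). HOT1, MCM1, TUP1, CYC8 and BCK1 were named after their values were seen. Each culture was harvested with and without salt, per the labels' protocols, but the labels do not tie replicate numbers to cultures. Deviations from the group means of same-numbered basal and salt libraries correlated at 0.243, 0.466 and 0.336 in HOG1-KO. They correlated at -0.657, 0.107 and -0.616 in WT of experiment 1 and at -0.686, -0.699 and 0.756 in WT of experiment 2. In WT, libraries of unlike number reached 0.753 (experiment 1, basal replicate 3 with salt replicate 1) and 0.877 (experiment 2, basal replicate 1 with salt replicate 2). Which libraries share a culture was therefore not established. The block by replicate number may join different cultures in WT, and a call lost under it cannot be told from such a mismatch.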

Additional observations from a re-analysis of the deposited data

Results flagged for a closer look

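In experiment 2 the salt responses of 9 named genes differed between the strains by edgeR's test of the difference itself (n = 3 per group, adjusted over all genes). They came from the 9 sensor and kinase genes tested and from lists of 9, 7, 12 and 10 genes. Of all 6107 genes, 4.57% were called as higher and 5.24% as lower in this test. Under the replicate block the differences of PTP3, MSN2 and FUS3 stayed called and the other 6 did not (adjusted p from 0.0513 to 0.11). Of the sensor and kinase genes only SSK22 was called. Its difference, HOG1-KO minus WT, was 1.02 on the log2 scale, with a fall in WT and no called change in HOG1-KO. Of the other pathway genes, the difference was 1.26 for MSB2, 1.01 for SMP1, 1.60 for SMK1 and 1.35 for FUS3, and it was -0.62 for CLA4, -1.41 for PTP3, -1.82 for MSN2 and -1.03 for SLT2. SMK1 was at a low level, which limits its estimate.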

How the results depend on the processing

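With total counts as the only scaling, the median change over all genes became 0.206 (log2) in WT of experiment 2 and 0.195 in HOG1-KO, and the test called 4 of the 9 genes in HOG1-KO in place of 7. Without both deviating WT libraries, 4 genes in place of 2 were higher in HOG1-KO than WT in salt, and 1 in place of 0 differed between experiments. The difference between the strains was called for 2 genes with DESeq2 in place of 1, and for 0 with total counts alone and 0 with the replicate block. DESeq2 called 1 difference between experiments. The pairing by replicate number ended, besides, the HOG1-KO calls of YPD1 (-0.50) and PBS2 (-0.33) and the SSK22 difference (1.01) and changed no other call of the 10 genes.

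With a library left out, 8 to 9 genes were called in experiment 1, 6 to 8 in WT of experiment 2, 5 to 7 in HOG1-KO, 0 for the strains in basal cells, 2 to 3 in salt, 1 for the difference between strains and 0 for that between experiments. The values given in the text that changed sign were uncalled in all fits. With a library left out these were SSK2 in experiment 1 (-0.26 to 0.047), YPD1 in WT of experiment 2 (-0.41 to 0.12) and the strain differences of SLN1 (-0.25 to 0.068), SSK1 (-0.17 to 0.067) and STE11 (-0.10 to 0.22). With total counts alone YPD1 in WT of experiment 2 became 0.06 and SSK2 in HOG1-KO 0.012. The STE11 difference became 0.024 with DESeq2, 0.029 with RLE scaling, 0.006 with total counts, 0.014 without a filter, 0.020 with the stricter filter, 0.021 with the block and 0.114 without both deviating libraries. The cause was not tested. Over all genes, calls between the strains in basal cells (29 higher and 31 lower) became 64 and 66 with DESeq2 and 42 and 29 with total counts alone, and with a library left out were fewest without WT basal replicate 2 (8 and 15) and most without WT salt replicate 2 (49 and 75). Strain calls in salt became 1487 and 1437 without both deviating libraries. Differences between the strains (279 and 320) became 148 and 212 with the block, 589 and 407 without WT salt replicate 2 and 611 and 637 without both deviating libraries. Differences between experiments (93 and 64) became 237 and 158 with DESeq2, 98 and 24 with total counts alone, 13 and 4 with the block and 455 and 359 without both deviating libraries, and with a library left out were fewest without experiment 1 WT basal replicate 1 (51 and 13) and most without experiment 2 WT basal replicate 1 (175 and 164). Over the values of the 10 genes given in the text, 748 alternative values kept direction and side of the threshold, 16 gained and 24 lost a call and 22 changed sign. Other estimates near 0, between the strains in basal cells or salt and between the experiments, changed sign too, and none was called where it did. For the called list genes, tried after seeing the data, 1321 kept their call, 125 lost it and 0 changed sign. Among the tests of the 10 genes, depth limits SSK22 most, at 69 to 137 counts in salt in experiment 1. On the lists, SMK1 was at a low level too.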
